A study of Saccharomyces cerevisiae with 2 samples.

Results

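This set holds 9 of the 6207 yeast open reading frames on the array: PRM10 (YJL108C), its neighbour YJL107C, PRM5 (YIL117C), CRG1 (YHR209W), NFG1 (YLR042C), PUN1 (YLR414C), PRY2 (YKR013W), SMF1 (YOL122C) and CHA1 (YCL064C). The 9 genes were picked by name because most of them had large ratios between zymolyase-treated and untreated cells while standing on no list of cell wall genes, so their ratios are given as a description and no test is made on them. All 9 had a ratio on both arrays, as did 2254 of the 6207 genes (36.3%). The name of the set, strongly raised genes, reflects how they were picked. With the sign of array 2 turned, an assumption explained below, 8 of them had high ratios on both arrays. The remaining gene, YJL107C, had a high ratio on array 1 and a low one on array 2.

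The study compared Saccharomyces cerevisiae cells of an msn2/4 mutant with and without zymolyase. Msn2 and Msn4 are transcription factors of the general stress response, and zymolyase is an enzyme mixture that degrades wall glucan. Cells grew on YEPD, a rich medium, at 24 °C; one part of the culture received zymolyase 100T at 5 units per ml, the other part did not, and cells were collected at 3 hours. Untreated RNA was labelled with Cy5 and treated RNA with Cy3 on array 1, and the dyes were exchanged on array 2. Both RNAs came from the same mutant, so nothing below measures what Msn2 and Msn4 contribute, and MSN2 and MSN4 had no ratio on either array. The design text gives 1 culture, while the text on each sample speaks of several, and the design text was taken as right here. Both arrays then form 1 replicate, a technical dye swap: no p-value is given, and every SD is over the 2 hybridisations of the same RNA pair (n = 2 arrays), not between cultures.

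Ratios are log2 values with the sign of array 2 turned. Positive ratios are likely zymolyase over untreated. That reading rests on published reports that genes of the cell wall integrity pathway, PRM5 among them, rise under zymolyase. The turn was chosen with these values known, largely from genes with large ratios that had opposite signs in the deposited columns, as 8 of the 9 genes had. The direction of the 9 genes, and the likeness of the 2 arrays on 8 of them, are therefore assumptions and not findings. Across all genes the arrays correlated negatively with the turn (Pearson's r = -0.19 and Spearman's rho = -0.31 over 2254 genes, which share both arrays and both RNA extracts), and 39.8% of genes had the same sign on both. The median of the mean ratios was -0.37.

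Damage to the yeast wall is sensed at the plasma membrane and relayed through Pkc1 and a MAP kinase cascade to Slt2, which activates the transcription factor Rlm1. The genes switched on by this pathway are known mostly as wall proteins and wall-building enzymes. Of the 9 genes described here, YJL107C is uncharacterised. The others encode predicted membrane proteins of a class induced by mating pheromone and a surface protein linked to filamentous growth. They also encode a protein of plasma membrane patches, a secreted sterol-binding protein, a metal transporter and a pair of metabolic enzymes. SLT2 itself had ratios of 4.08 and 2.00 on arrays 1 and 2, and RLM1 had none.

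The call of a positive gene required a positive sign on both arrays and a mean of 2-fold or more (log2 ratio of 1); negative calls mirrored it. By this rule 8 of the 9 genes were positive, against 65 of all 2254 genes (2.88%). The same 8 passed 2-fold on array 1 and on array 2 separately, against 38 genes (1.69%), and 5 of them, PRM10, PRM5, CRG1, PRY2 and CHA1, were at least 4-fold positive on each, against 11 genes (0.488%). The genes were picked on these ratios, so nothing is read from these counts. The median of the 9 mean ratios was 2.70, against -0.37 over all genes.

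**Figure D1:**
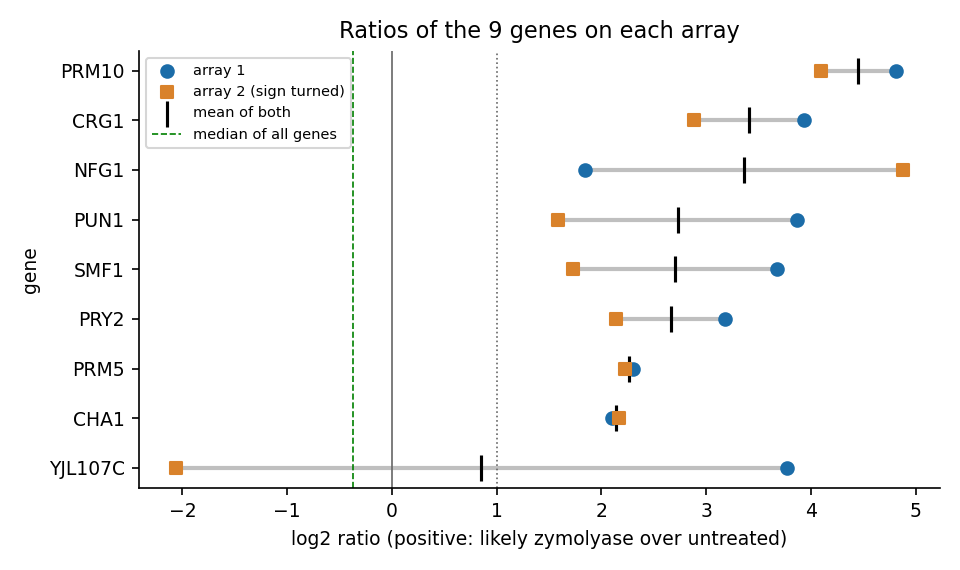
Log2 ratios of the 9 genes on array 1 (circles) and array 2 with its sign turned (squares). Black ticks mark the mean of both arrays, the dotted line 2-fold and the dashed line the median of all genes, -0.37; 8 genes lie to the right of 2-fold on both arrays, and YJL107C lies on either side of 0.

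PRM10 and PRM5 encode predicted membrane proteins named for their induction by mating pheromone. PRM10 had ratios of 4.81 on array 1 and 4.09 on array 2, a mean of 4.45 ± 0.51 (21.8-fold). It was the highest of all genes on array 1, the third highest on array 2 and the highest in the mean. PRM5, which is known as a target of Rlm1 in cell wall integrity signalling, had 2.30 and 2.22, a mean of 2.26 ± 0.052 (4.79-fold, rank 21 of 2254). The arrays were almost equal for PRM5, and both lay below either ratio of PRM10.

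NFG1 is named for its negative role in filamentous growth, the elongated growth form that yeast takes when nutrients are short. Its ratios were 1.84 on array 1 and 4.88 on array 2, with a mean of 3.36 ± 2.15 (10.3-fold, rank 5). The array 2 ratio was the highest of all 2918 genes valued there, while NFG1 held rank 73 on array 1. NFG1 was the 1 gene of the 9 with a far higher ratio on array 2.

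PUN1 encodes a plasma membrane protein, named for its rise under nitrogen stress, that is found with Sur7 in stable membrane patches. It had 3.87 on array 1 and 1.59 on array 2, a mean of 2.73 ± 1.61 (6.63-fold, rank 12). PRY2, a secreted protein of the CAP family that binds and exports sterols, had 3.18 and 2.13, a mean of 2.66 ± 0.74 (6.32-fold, rank 14). SMF1, a manganese transporter of the NRAMP family at the cell surface, had 3.68 and 1.73, a mean of 2.70 ± 1.38 (6.51-fold, rank 13). These 3 genes had nearly the same mean, all were higher on array 1, and PRY2 had the smallest gap between the arrays among them.

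The remaining members that were positive on both arrays are enzymes. CRG1, a methyltransferase that uses S-adenosylmethionine and is known for resistance to the toxin cantharidin, had 3.93 on array 1 and 2.89 on array 2. Its mean was 3.41 ± 0.74 (10.6-fold), rank 4 of all genes. CHA1, the deaminase that breaks down serine and threonine so that cells can use them as nitrogen sources, had 2.10 and 2.17, a mean of 2.14 ± 0.049 (4.39-fold, rank 24). CHA1 and PRM5 were the members with the closest arrays, and also the lowest means of these 8.

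YJL107C, an uncharacterised open reading frame next to PRM10 on the same strand of chromosome X, stood apart. In related fungi the neighbouring frames are known to be joined into 1 longer gene. YJL107C had 3.77 on array 1 (13.6-fold), rank 7 of 2428 genes, and -2.06 on array 2 (4.18-fold in the other direction), rank 224 from the bottom of 2918. The mean was 0.85 ± 4.12 and did not reach 2-fold. Array 1 alone would place YJL107C between SMF1 and PUN1, and array 2 alone would place it with the negative genes. In the deposited columns YJL107C had the same sign on both arrays, 3.77 and 2.06, whereas PRM10 had 4.81 and -4.09. If array 2 is left as deposited, YJL107C has a mean of 2.92 and PRM10 one of 0.36, and 277 of all genes (12.3%) are positive. Under either reading only 1 of these adjacent genes is at least 2-fold positive in the mean.

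Other genes high on array 1 are given beside YJL107C as a description, since the sign of array 2 was itself chosen from genes with large ratios. Of the 7 genes with an array 1 ratio at or above that of YJL107C, itself included, and a ratio on both arrays, 6 were positive on array 2, among them the members PRM10, CRG1 and PUN1, and YJL107C was negative. Among the 58 genes at least 4-fold positive on array 1, 26 were at least 2-fold positive on array 2, 23 were within 2-fold and 9 were at least 2-fold negative. Of those 9 genes, 5 were at least 4-fold negative on array 2: SSA3, a heat-inducible Hsp70 chaperone (2.06 and -6.69), YDL016C, YJL107C, YML039W and MNN10, a mannosyltransferase subunit (2.03 and -2.11). These companions were chosen after their values were seen.

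**Figure D2:**
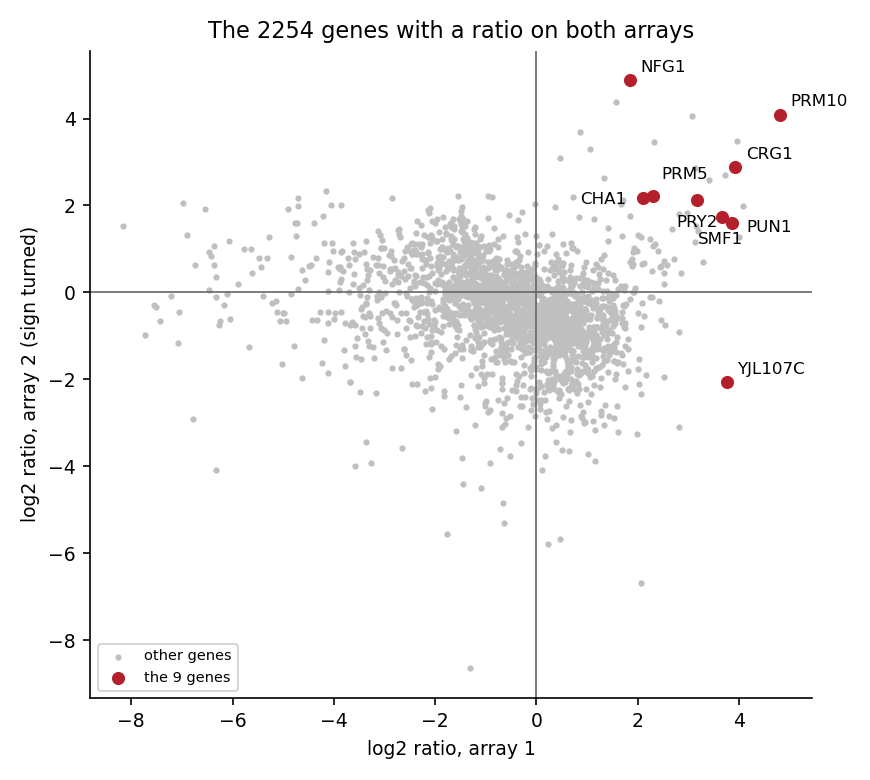
Log2 ratios of 2254 genes on array 1 (horizontal) and array 2 with its sign turned (vertical), with the 9 genes in red. Of these, 8 lie in the sparse upper right corner, and YJL107C lies at 3.77 and -2.06 in the lower right.

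The order of the means was PRM10, CRG1, NFG1, PUN1, SMF1, PRY2, PRM5, CHA1 and YJL107C. Of the 8 neighbouring pairs in this order, 6 had overlapping arrays and a difference of means below their pooled SD. PRM10 exceeded CRG1 by 1.04 (pooled SD 0.63), and PRM5 exceeded CHA1 by 0.13 (pooled SD 0.051), both with the same order on each array. From CRG1 down to PRM5, no neighbours in the order differed beyond their spread. Without YJL107C, 12 of the 28 pairs of the 8 genes had the same order on both arrays, and 6 of the 8 genes were higher on array 1.

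For each gene, the 2 genes outside the set closest to it by Euclidean distance over the 2 arrays, on the log2 scale, were taken as most like it. Within the set, PRM5 and CHA1 lay 0.20 apart and PUN1 and SMF1 0.24 apart, closer than any gene outside the set lay to them. For the 8 positive members these 16 places were filled by 11 different genes, at distances of 0.28 to 1.74. The nearest to PRM10 outside the set were KDX1, a pseudokinase paralog of Slt2 (3.96 and 3.48, distance 1.04), and YPS3, a surface aspartyl protease (3.07 and 4.07, distance 1.74). KDX1 was also the second nearest gene to CRG1, after PIR3, a wall protein (3.73 and 2.70, distance 0.28). NFG1 was closest to NCW2, another wall protein (1.58 and 4.38, distance 0.57), followed by YPS3. Outside the set, PUN1 was closest to GFA1, which opens the route to the chitin precursor (4.01 and 1.28, distance 0.34), and then to SLT2. Likewise outside the set, SMF1 was closest to SLT2 (distance 0.48) and to CRH1, a chitin-glucan transglycosylase (3.15 and 1.54). PRY2 was closest to the surface protein gene PST1 (2.98 and 1.84, distance 0.36) and to YIL108W (2.82 and 1.80). PRM5 and CHA1 had the same nearest genes outside the set, HSP150 and CIS3, wall proteins of the PIR family, at distances of 0.40 to 0.65. For YJL107C the nearest were COS5, of a subtelomeric family (2.52 and -1.95, distance 1.25), and YDL016C (2.82 and -3.10). Likeness over 2 hybridisations of the same RNAs is a description only.

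Relatives and pathway partners of the members were read from 8 gene lists, and members are left out of the counts that follow. Of the 91 genes on these lists 41 had a ratio on both arrays; 2 were positive (4.88%) and 4 negative (9.76%), against 2.88% and 13.6% of all genes. Their median was -0.24, against -0.37 over all genes. Both shares were close to those of all genes, and 4.88% stands for only 2 genes. When each array was centred on its own median, SMF3 was the 1 of the 4 negative genes that kept its call, and both positive genes kept theirs.

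The pheromone-regulated PRM family was largely without values. Of the 8 members other than PRM5 and PRM10, 6 had no ratio on either array and PRM8 had one only on array 2. PRM9 had -0.53 and -0.14, a mean of -0.33, close to the median of all genes. YNL058C, the paralog of PRM5, was added after seeing the data and had 1.13 and 1.69, a mean of 1.41 ± 0.40, positive on each array. Among 21 genes of the mating response, which includes the pheromone receptors, their signalling proteins and fusion genes, 6 had a ratio on both arrays. None was positive or negative by the rule, against 2.88% and 13.6% of all genes. Nothing is read from counts over these 6 genes. Their means lay between -0.21 for the alpha-factor receptor STE2 (0.72 and -1.14) and 0.51 for BAR1, the protease that degrades alpha-factor (1.41 and -0.40). Over this list the median of the means was -0.09; array 1 had a median of 0.68 and array 2 one of -0.63, so the arrays differed in sign. FUS1, a cell fusion gene used as a marker of the pheromone response, had -0.58 and 0.30, a mean of -0.14 with opposite signs.

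Around NFG1, 12 other genes of the filamentous growth pathway were listed and 4 had a ratio on both arrays. KSS1, the MAP kinase of that pathway, was positive with 1.84 and 0.70, a mean of 1.27 ± 0.81. The membrane sensors SHO1 and MSB2 had means of 0.49 and 0.31, and the adaptor STE50 had -3.36 and 0.65, a mean of -1.36 with opposite signs. STE12 and TEC1, the transcription factors of the pathway, had no mean.

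Of the Sur7 family and the eisosome, the protein scaffold of the membrane patches in which Pun1 lies, 3 of 10 genes had both ratios. The tetraspan protein gene NCE102 was negative at -1.21 and -0.83, a mean of -1.02 ± 0.27. The core eisosome genes PIL1 (0.96 and -0.19) and LSP1 (0.09 and -0.56) were not counted in either direction. SUR7 had a ratio only on array 2, -1.91. Of the 3 genes with both ratios 0 were positive and 1 negative, against 2.88% and 13.6% of all genes. PUN1 was picked for its high ratio, so nothing is read from its standing beside them.

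PRY1, a paralog of PRY2 that also exports sterols, was positive at 2.31 and 1.06, a mean of 1.69 ± 0.88 and rank 35 in the mean. PRY1 and PRY2 were both higher on array 1, by 1.25 and 1.05. How far the probes of these related sequences share signal was not tested. PRY3 had no ratio. The sterol acyltransferase ARE1 had -0.87 and -1.10, a mean of -0.98, just short of the limit.

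The measured paralogs of SMF1 had ratios of the other sign. SMF3, the vacuolar member of the NRAMP family, which is linked to iron, was negative at -1.46 and -3.82, a mean of -2.64 ± 1.66. SMF2, the member in intracellular vesicles, had -0.65 and -0.82, a mean of -0.73 ± 0.12, which is 0.36 below the median of all genes. SMF1 lay above both paralogs on each array, and the lower of its ratios, 1.73, was above the higher ratio of SMF2. Of 6 measured genes of manganese and related metal transport besides SMF1, SMF3 was the 1 counted as negative and none was positive. Over all genes the shares were 13.6% and 2.88%. The Golgi manganese gene ATX2 had 1.41 and 0.44, a mean of 0.93 that became 1.27, and positive by the rule, after centring, and the vacuolar transporter gene CCC1 had -0.10 and -1.30.

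CHA1, which was picked for its high ratio, was set beside a list of serine, threonine and glycine metabolism. Of 15 others on that list, 13 had both ratios; none was positive and 2 were negative, SER3 (-0.03 and -2.83, mean -1.43 ± 1.98) and SER2 (-1.92 and -0.32, mean -1.12 ± 1.13), both enzymes of serine synthesis. SER1 and SER33, also of that route, were not called, at 0.21 and -2.14 and at 0.76 and -0.84. The 0 positive and 2 negative genes of 13 stand against 2.88% and 13.6% of all genes, and nothing is read from such small counts. Neither negative gene kept its call after centring. The highest mean among the 13 was 0.43, for the threonine deaminase ILV1 of isoleucine synthesis. The 13 means had a median of -0.17; it was 0.34 for array 1 and -0.69 for array 2. CHA4, the activator of CHA1, had no ratio, nor had the CHA1 homologues YIL168W and SDL1.

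CRG1 was likewise set against the cycle that makes and recycles its substrate S-adenosylmethionine. None of the 6 measured genes was positive or negative by the rule, against 2.88% and 13.6% of all genes, and nothing is read from so few. The S-adenosylmethionine synthetases SAM1 and SAM2 had means of -1.01 and -0.28, in each case with a positive ratio on array 1 and a negative one on array 2. Methionine synthase MET6 had 0.65 and -2.21, and SAM4, a homocysteine methyltransferase, had -1.07 and -0.51. TMT1, a methyltransferase related to CRG1, had no ratio.

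**Figure D3:**
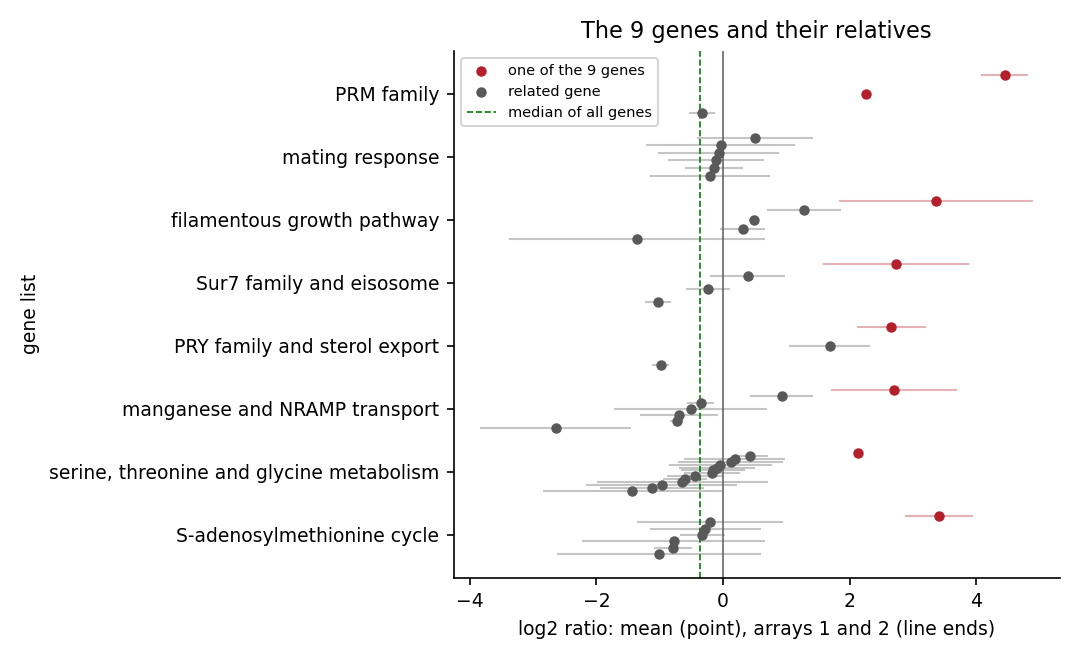
Mean log2 ratio (points) and the ratios on both arrays (line ends) for every gene with both values on 8 lists, with the 9 genes in red where they belong to a list. PRY1, KSS1 and the members lie to the right of 1; SMF3 has the lowest mean, -2.64.

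The genes next to the members on the chromosome were not used to pick them. The nearest gene on each side, in the gene order of RefSeq assembly R64, gave 16 genes besides the members themselves, of which 9 had a ratio on both arrays. AFB1, beside NFG1 on the same strand, was the 1 positive gene among these 9 (11.1%), INA1 beside PUN1 and YPT52 beside PRY2 were negative (22.2%), against 2.88% and 13.6% of all genes. These shares stand for 1 and 2 genes. The median of the 9 was -0.64. AFB1, which encodes a barrier protein that binds the mating pheromone a-factor, had 0.86 on array 1 and 3.70 on array 2, a mean of 2.28 ± 2.01. NFG1 and AFB1 were both far higher on array 2, by 3.04 and 2.84. Whether their probes share signal was not tested. INA1 had -1.89 and -1.69, a mean of -1.79 ± 0.14, and YPT52, a Rab GTPase of endocytosis, had -1.30 and -1.33, a mean of -1.31 ± 0.027. After centring, INA1 kept its negative call and YPT52, at -0.97, did not.

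The other neighbours had means between -2.46 and 0.13. TRX1, the thioredoxin gene on the other side of NFG1, gave the lower end with opposed ratios of -6.98 and 2.06. RHO3 and HIS5, on either side of PRM5, had means of -0.82 and 0.13, BAT1 beside CRG1 -0.13, HRP1 beside SMF1 -0.64 and FPT1 beside PRY2 -0.57. UTP10, on the other side of PRM10, had -3.11 on array 1 and no ratio on array 2. Besides AFB1, no measured neighbour outside the set was positive.

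The difference between the arrays followed gene length among the shorter genes on the array. The half-difference, (array 1 minus array 2) divided by 2, holds what the arrays do not share if the turn of array 2 is right. With array 2 as deposited, it equals the mean ratio instead. Its Spearman's rho with gene length was 0.46 across 2174 genes, while that of the mean with the turn was 0.03. Genes were ordered by length and divided into 10 groups of nearly equal size. The median half-difference rose from -0.94 in group 1 to 0.52 in group 6. It rose no further in groups 7 to 10, where it lay between 0.35 and 0.51. In the shortest group, which holds NFG1 (486 bases), the median half-difference was -0.94 (quartiles -1.69 and -0.36), and NFG1 had -1.52, within those quartiles. PRM10 and CHA1, of group 5, had 0.36 and -0.03 and lay within its quartiles of -0.21 and 0.75. PRM5, of group 4, had 0.04 and lay within -0.65 and 0.46.

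CRG1 and PUN1, of group 3 (median -0.63, quartiles -1.14 and -0.08), had 0.52 and 1.14, above the upper quartile. PRY2 and SMF1, at 0.52 and 0.97, lay just above the upper quartiles of their groups, 0.46 and 0.96. YJL107C (1164 bases) had 2.92, the highest of the 219 genes in group 5, though it is almost as long as PRM10 (1152 bases). Among all 2254 genes it ranked 47 by the size of the half-difference. The part of gene length or dye in the ratios of these genes was not tested.

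**Figure D4:**
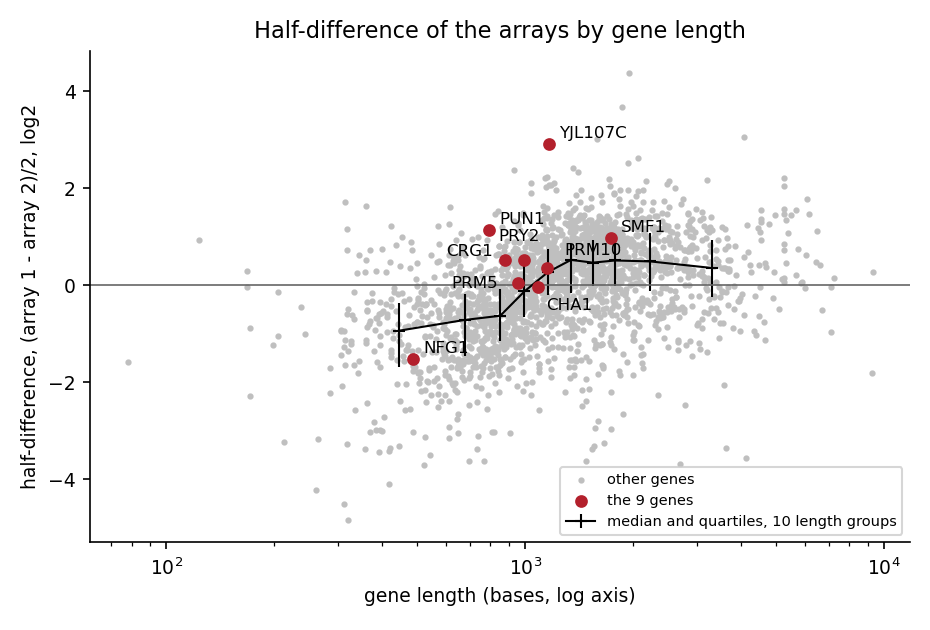
Half-difference of the arrays on the log2 scale against gene length in bases on a log axis, with the 9 genes in red; the black line joins the medians of 10 length groups, and its bars are the quartiles. NFG1 follows the trend of short genes at -1.52, and YJL107C lies at 2.92, the highest of its length group.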

How the data were processed

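Two-colour arrays of 1 treated and 1 untreated RNA extract, hybridised as a dye swap, were analysed. The authors deposited 1 log2 ratio per gene and array. The scanner, background correction, normalization, filter, centring and direction are not given in the sources used here. The log base was read from the values: all 387 array 1 values below -2 are the log2 of a whole multiple of 0.0001, within the rounding to 4 decimals, where chance gives 8.52%. For array 2 with its sign turned, all 239 values below -2 were such multiples (chance 10.8%). As deposited, 3 of 40 were (chance 11.9%). The deposited array 2 column thus reads as a log2 ratio with its sign changed. Neither the numerator on either array nor the reason for that change can be read from this. No spot signal was given, so precision is limited by the 2 arrays.

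The 2 control spots of the 6209 rows were left out. Array 2 was turned in sign, and each gene's mean and SD over the arrays were computed without recentring (Python 3.11.15, pandas 2.3.3). The steps were checked on simulated data with the opposite sign of array 2 built in, so the turn itself was not checked. RefSeq assembly R64 gave symbols for 5654 of 6207 names, gene lengths and neighbours; the probes' build is not given, so no coordinates are printed. Promoter and protein sequences were not analysed here.

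The 9 genes and the lists were chosen with earlier results of these data known. Genes named are the members, their chromosomal neighbours, the 2 genes nearest to each in ratios, list members past 2-fold and up to 4 per list farthest from 0, SLT2, RLM1, MSN2 and MSN4; any other gene was picked with its values known, or is named as having none. Alternatives were centring, rescaling, other fold limits, single arrays, array 2 as deposited and every sign turned.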

Additional observations from a re-analysis of the deposited data

How the results depend on the processing

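With 1 culture and 2 hybridisations these results have no replicate check, and the sign of array 2 and the numerator decide most of them. With array 2 as deposited the means were 0.36 for PRM10, 0.037 for PRM5, 0.52 for CRG1, -1.52 for NFG1, 0.52 for PRY2, 0.97 for SMF1 and -0.035 for CHA1, and 1 member (YJL107C) was positive; over all genes 277 were positive, and among related genes 6 were positive and 2 negative. The related medians were then 0.57 over all lists, 0.82 for mating response, -0.20 for filamentous growth, 0.33 for Sur7 and eisosome, 0.54 for manganese transport, 0.58 for serine and threonine and 1.00 for the S-adenosylmethionine cycle. Turning every sign gives, by construction, -4.45 for PRM10, -2.26 for PRM5, -3.41 for CRG1, -3.36 for NFG1, -2.73 for PUN1, -2.66 for PRY2, -2.70 for SMF1 and -2.14 for CHA1, 0 positive members, 307 positive and 65 negative genes, 4 positive and 2 negative related genes, and medians of 0.24 over all lists, 0.090, -0.40, 0.24, 0.61, 0.17 and 0.55 in the order above. Centring, without and with rescaling, gave 2.61 and 2.72 for PRM5, 2.48 and 2.61 for CHA1, 112 and 109 positive genes, 172 and 168 negative genes (a positive share of 39.4% in place of 17.5%) and 1 negative related gene in both; the medians became 0.11 and 0.054 over all lists, 0.26 and 0.21 for mating response, 0.11 and 0.054 for Sur7 and eisosome and 0.17 and 0.10 for serine and threonine. Array 2 alone and array 1 alone gave 8 and 9 positive members, 271 and 297 positive genes, 757 and 859 negative genes, 2 and 4 positive and 17 and 11 negative related genes, and related medians of -0.68 and 0.34; by list, medians were -0.63 and 0.68 for mating response, -0.56 and 0.089 for Sur7 and eisosome, -0.69 and 0.34 for serine and threonine and -1.24 and 0.58 for the S-adenosylmethionine cycle. The single-array counts run over all genes valued on that array, 2918 for array 2 and 2428 for array 1, not the 2254 with both. They are thus not like for like with the main counts. The single-array medians keep to genes with both ratios. Among 806 genes with arrays no more than 1 apart, which leaves 3 members by construction, 21 genes were positive and 90 negative, and 0 related genes were positive and 1 negative. At 1.5-fold the counts were 109 and 515, with 9 negative related genes; at 2-fold on each array they were 38 and 104, with 1 positive and 1 negative related gene. The 8 positive members stayed positive under centring, rescaling, either array alone and both fold limits. They were picked on these ratios and all 8 passed 2-fold on each array, so this is no check of them. With 2 genes on each side the chromosomal neighbours' median was -0.37. The causes were not tested. The alternatives on signal filters, promoter windows and protein identity were not run, since no such data were used.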

Other observations

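Some partners of the 9 genes had a ratio on 1 array only. They have no mean, and enter only the counts for array 1 alone or array 2 alone above. In the filamentous growth pathway that NFG1 is named for, the kinase gene STE7 (-4.08), the transcription factor gene STE12 (-4.49) and DIG1 (-4.58), an inhibitor of Ste12, each had a low ratio on array 1 and none on array 2. TEC1, the other gene of that list with a single ratio, had -0.21 on array 2. Of the 174 genes valued on array 1 alone, 19 were at or below -4 (10.9%), against 79 of the 2254 genes valued on both (3.50%). STE6, the exporter of a-factor, had -2.36 on array 1 alone. On array 2 alone the sterol ester hydrolase gene YEH2 had -3.05, and MFA1 and MFA2, which encode a-factor, 0.69 and -1.33.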
